A study of Mus musculus with 25 samples.

Results

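The SLC25 mitochondrial carriers of the mouse *soleus* were taken as every gene of the count table whose symbol is Slc25a followed by a number, which gave 47 of 52636 genes. The members were chosen by symbol alone, so no measured value of a single gene entered the rule. Earlier results of these data were, however, known when the family was chosen. Carriers of the same family that have other symbols, such as the uncoupling proteins, are outside this rule and were kept as a separate list. RNA was sequenced from the *soleus* of 25 C57BL/6 mice of 12 weeks, 1 library per mouse, 13 from males and 12 from females. All mice carried 2 floxed *Dnmt3a* alleles (flox/flox, around exon 19). WT mice had no Cre, and mD3AKO mice, muscle-specific knockouts of the DNA methyltransferase DNMT3A, also carried Cre driven by the muscle creatine kinase promoter (mCK-Cre). No group carried the Cre without the floxed alleles, so the Cre itself and the deletion cannot be told apart. There were 5 WT and 7 mD3AKO mice at rest, which had spent 30 minutes on a sham treadmill, and 7 WT and 6 mD3AKO mice that had run at 16 m/min and a 5% incline for 30 minutes and whose muscle was taken 60 minutes later. The labels name the animals singly, so each library is 1 mouse.

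SLC25 proteins sit in the inner mitochondrial membrane, with few exceptions, and move nucleotides, phosphate, carboxylates, amino acids and cofactors between the cytosol and the matrix. They are nuclear-encoded, most of them exchange 1 substrate for another, and the ADP/ATP carriers among them pass the ATP made by oxidative phosphorylation to the rest of the cell. In slow, oxidative muscle such as the *soleus* they are best known for this exchange of ATP and for the entry of phosphate, fatty acyl groups and reducing equivalents.

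The libraries held between 22671457 and 37431801 counts on genes, with a median of 32189360. *Dnmt3a* was at 116 ± 13.2 CPM (counts scaled to a common TMM-normalized library size of 1e6, SD, n = 12) in WT and at 40.9 ± 5.86 (n = 13) in mD3AKO mice, a log2 fold change of -1.52 (SE 0.0701, edgeR's quasi-likelihood test, adjusted p = 1.52e-13). The muscle creatine kinase promoter is active in muscle, and which cells of the whole *soleus* held the remaining *Dnmt3a* was not tested. In 1 library, of mD3AKO mouse 15 at rest, 3 genes held 39.5% of the counts, against 7.75% to 13.0% in the other libraries. All 9 muscle markers checked, *Acta1*, *Ckm* and the slow troponins and myosins among them, were present in every library. In a whole muscle, fewer cells of a type and less RNA per cell cannot be told apart.

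Of the 47 carriers, 40 passed the filter on low counts with the 4 groups, in which 16340 genes were tested, and *Slc25a2* passed only in the test of sex, in which 17389 genes were tested. The other 6 were near the limit of detection. *Slc25a43*, *Slc25a21*, *Slc25a31*, *Slc25a41*, *Slc25a54* and *Slc25a48* had 5 to 50 counts over all 25 libraries. *Slc25a31* encodes the ADP/ATP carrier of the male germ line. The 40 carriers that passed covered every substrate class listed.

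Together, the carriers took 0.528% to 0.844% of the counts of a library, and 0.626% to 0.844% without mouse 15. Levels of different genes were compared as CPM per kilobase of exon (CPM per kb). By this measure *Slc25a4*, the ADP/ATP carrier of heart and skeletal muscle, was highest with 1923 ± 219 (SD, n = 25) and alone held 60.1% to 63.9% of all carrier counts of a library. *Slc25a3*, the phosphate carrier that supplies the ATP synthase, was at 178 ± 22.9 and *Slc25a11*, the exchanger of oxoglutarate and malate in the malate-aspartate shuttle, at 163 ± 16.0. The ranges of these 2 over the 25 mice overlapped, with 136 to 220 for *Slc25a3* and 133 to 191 for *Slc25a11*, and *Slc25a3* ranked higher with either length used, by a factor of 1.09 per kilobase of exon and 3.02 per kilobase of the principal transcript.

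*Slc25a12* (aralar), the calcium-regulated aspartate/glutamate carrier of muscle and brain, followed at 69.6 ± 7.57 CPM per kb. Its close relative *Slc25a13* (citrin) was lower by a factor of 58.4. *Slc25a20*, the carnitine/acylcarnitine carrier needed for the oxidation of long-chain fatty acids, was at 34.8 ± 4.97 CPM per kb, and *Slc25a5*, the widely expressed ADP/ATP carrier, at 31.1 ± 4.83. These 2 overlapped in range over the mice. *Slc25a4* exceeded *Slc25a5* by a factor of 61.8. *Slc25a34* was at 26.2 ± 10.8 and *Slc25a39*, a carrier of glutathione, at 13.7 ± 1.40. With the length of the longest principal transcript in place of all exons, the same 8 genes ranked highest, *Slc25a20* moved before *Slc25a12*, and *Slc25a4* exceeded *Slc25a3* by a factor of 3.84 in place of 10.8.

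**Figure D1:**
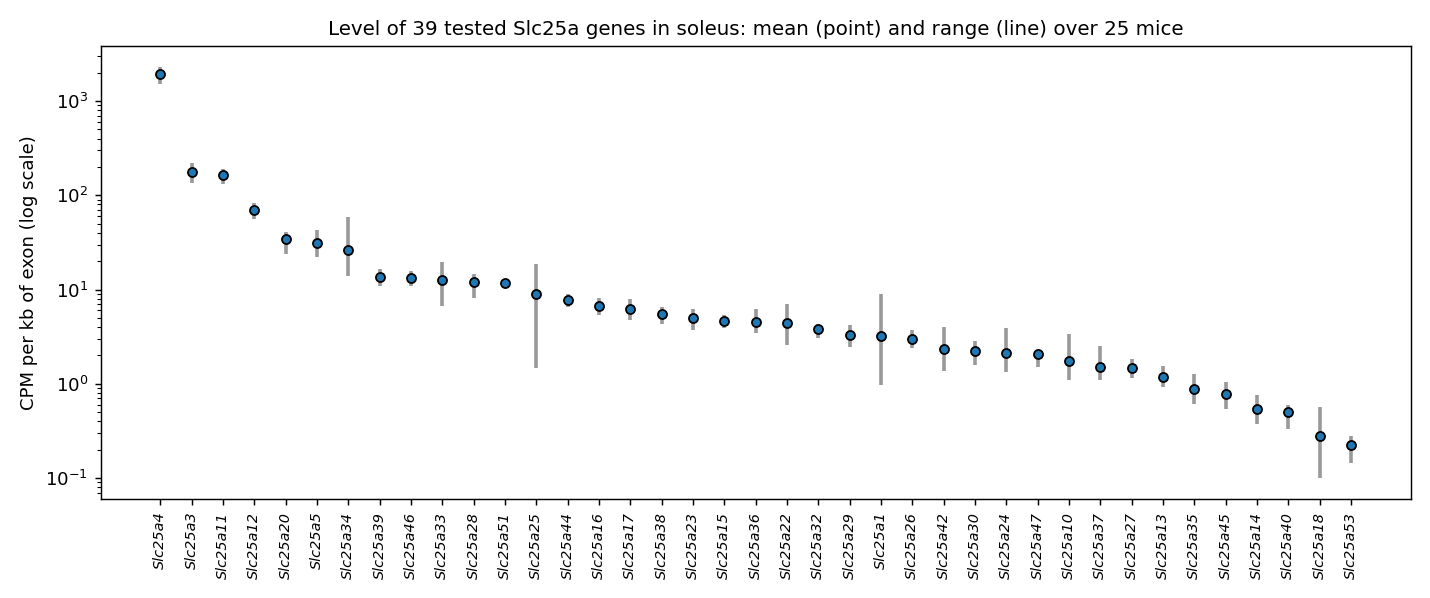
Level of 39 of the 40 tested carriers in CPM per kilobase of exon on a log axis, ordered from high to low. Points are means and lines the range over 25 mice. *Slc25a4* stands above all others at 1923, and *Slc25a53* is lowest. The line of *Slc25a25* is long because rested and exercised mice are drawn together.

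The first question of the design was what a bout of treadmill running changed 60 minutes later. Of the 40 tested carriers, 4 were higher after exercise and 0 lower at an adjusted p under 0.05 (edgeR's quasi-likelihood test, main effect over both genotypes). Among all 16340 genes, 10.4% were called, 5.7% higher and 4.69% lower. The share of carriers called, 10%, was thus near that of all genes. At an unadjusted p under 0.05 the same 4 carriers were reached, against 21.3% of all genes. The median log2 fold change of the 40 carriers was 0.0059, beside -0.00088 over all genes. Of the carriers 22 were above 0 and 18 below, with 49.7% of all genes above 0. DESeq2 also called 4 carriers, all of them higher.

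The 4 carriers were *Slc25a25* and *Slc25a5* among those of adenine nucleotides and phosphate, *Slc25a33* among those of vitamins, cofactors and pyrimidine nucleotides, and *Slc25a30* among the uncoupling protein-like carriers. No carrier of carboxylates (0 of 7), of amino acids, glutathione and acylcarnitine (0 of 7), or of iron (0 of 2) was called for exercise. With 10.4% of all genes called, counts of 0 in classes this small do not set a class apart. Of the 8 carriers with the highest levels 1 was called, *Slc25a5*, a share near that of all genes.

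*Slc25a25* (chr2:32414487-32451445, minus strand, mm10) encodes a carrier that exchanges ATP-Mg for phosphate and is switched on by calcium, and so sets the adenine nucleotide pool of the matrix. At rest it was at 13.8, 14.6, 15.3, 21.4 and 32.3 CPM in the 5 WT mice. In the 7 rested mD3AKO mice it was between 11.6 and 17.6, with a median of 15.3. After exercise it was between 75.5 and 137 (median 132) in the 7 WT mice and between 106 and 148 (median 110) in the 6 mD3AKO mice. Every exercised mouse was above every rested mouse, and the lowest exercised value, in a male WT mouse, stood well clear of the highest rested one. The rise was 7.06-fold (log2 fold change 2.82, SE 0.129, adjusted p = 5.67e-14). It was the largest change with exercise among the 40 carriers tested. *Slc25a25* shares 379 bases of exon with *Naif1* on the other strand, which held 3456 counts over all libraries, and the strand setting of the counting is not given in the sources used here.

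*Slc25a33* (chr4:149744036-149774277, minus strand) encodes a carrier of pyrimidine nucleotides, which brings nucleotides into the matrix for mitochondrial DNA and RNA. It was at 14.2, 14.4, 19.6, 19.7 and 21.3 CPM in the rested WT mice and between 12.5 and 23.2 (median 16.9) in the rested mD3AKO mice. After exercise it was between 27.2 and 37.1 (median 31.3) in WT and between 24.7 and 31.8 (median 25.9) in mD3AKO mice. Here too the exercised and rested mice did not overlap, although the gap was narrow, from 23.2 to 24.7. The log2 fold change was 0.74 (SE 0.0917, adjusted p = 2.1e-06), a rise of 66.6%. Among all tested genes, 0.765% were higher in every exercised mouse than in any rested mouse.

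*Slc25a5* (chrX:36795651-36798807, plus strand) rose by less. It was at 36.5, 43.0, 44.0, 48.5 and 49.3 CPM in rested WT mice and between 38.7 and 56.6 (median 46.9) in rested mD3AKO mice, and between 47.8 and 71.2 (median 56.6) in exercised WT and between 48.0 and 65.0 (median 55.6) in exercised mD3AKO mice. All 13 exercised mice were above the median of the rested ones, but 8 of the 13 lay below the highest rested value. The log2 fold change was 0.31 (SE 0.0666, adjusted p = 0.00234). Of its words of 31 bases, 49.4% also occur in transcripts of other genes, mostly processed copies, and how the counting treated reads that fit several places is not given in the sources used here. The 4 copies that share most words with it held 10 to 65 counts each over all libraries, against 41540 for *Slc25a5* itself.

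*Slc25a30* (chr14:75761999-75787037, minus strand), which resembles the uncoupling proteins, was at a low level. It was at 2.73, 2.90, 3.30, 4.01 and 4.12 CPM in rested WT mice and between 2.82 and 3.91 (median 3.33) in rested mD3AKO mice, and between 3.86 and 4.83 (median 4.12) in exercised WT and between 3.41 and 4.71 (median 4.03) in exercised mD3AKO mice. All 13 exercised mice were above the rested median, while 7 of them lay below the highest rested mouse. The log2 fold change was 0.31 (SE 0.0757, adjusted p = 0.00625). In males alone both carriers missed the threshold, with an adjusted p of 0.0516 for *Slc25a5* and 0.113 for *Slc25a30*, and in females alone *Slc25a30* did, with 0.363. The log2 fold changes in these fits were about as large, at 0.29, 0.32 and 0.29.

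**Figure D2:**
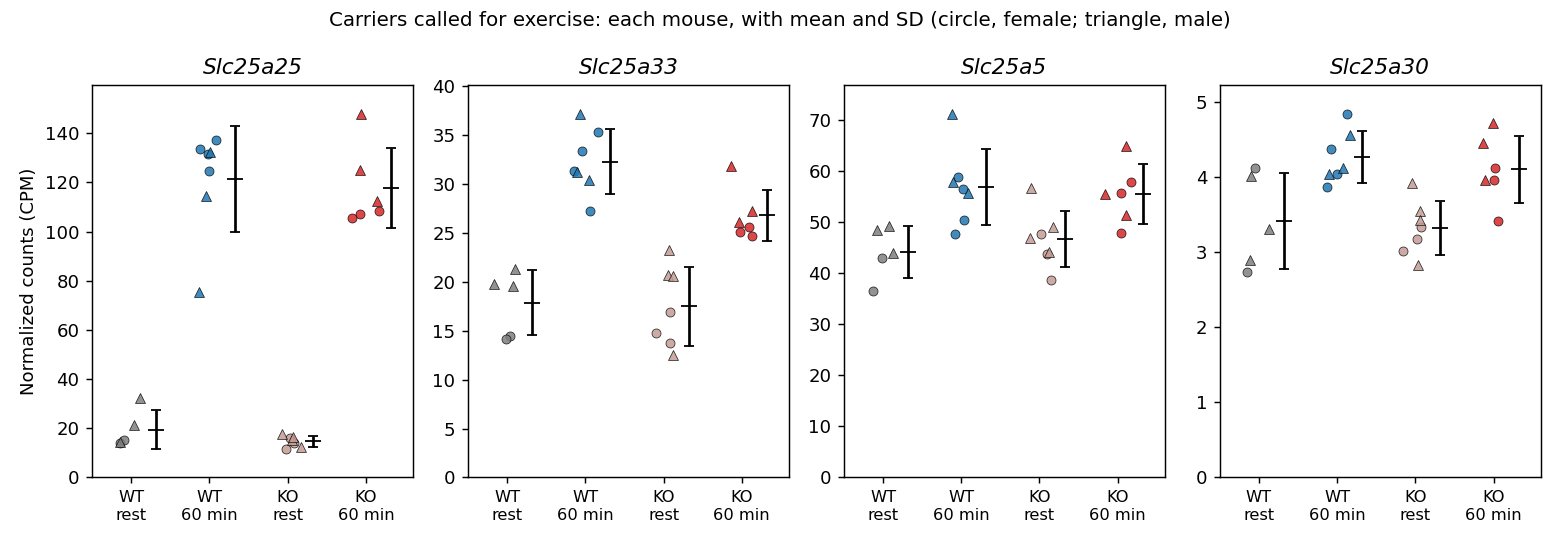
CPM of the 4 carriers called for exercise in each mouse, by genotype (KO, mD3AKO) and exercise, with mean and SD of each group, circles for females and triangles for males. Rested and exercised mice do not overlap for *Slc25a25* and *Slc25a33*, with highest rested values of 32.3 and 23.2, and overlap for *Slc25a5* and *Slc25a30*.

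Markers of endothelium moved with exercise as well. Of 5, 4 (*Cdh5*, *Tek*, *Kdr* and *Emcn*) were lower after it, and their summed level was 335 to 443 CPM in rested WT, 323 to 418 in rested mD3AKO, 277 to 362 in exercised WT and 293 to 351 in exercised mD3AKO mice. Within the rested mice, the correlation of log2 CPM of *Slc25a25* with this sum was 0.11, and within the exercised mice -0.21 (Pearson, n = 12 and 13). For *Slc25a33* these were -0.072 and -0.39. All 6 fibroblast markers also had a log2 fold change below 0 with exercise, from -0.44 to -0.12 with a median of -0.38, and 0 were called. The part of these shifts in the 4 rises was not tested.

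The start sites of the 2 carriers that separated exercised from rested mice were searched for short words that transcription factors bind, since calcium and cAMP signals that run through such words are known in working muscle. Promoter windows of 300 bases, from 250 before to 50 after a start, were taken from RefSeq (GRCm38.p6) and held 36 of the 47 carriers in 46 windows. The other 11 carriers were not matched. 6 words were searched on both strands. The cAMP element was searched as TGACGTCA, and its core as TGACG. The word of the AP-1 factors was TGANTCA, where N is any base. The E-box, to which basic helix-loop-helix factors bind, was searched as CACGTG. The word of the estrogen-related receptors was TNAAGGTCA, and the last was the NRF1 word. A full cAMP element holds the core word on both strands, so the first word also counts as 2 of the second.

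*Slc25a25* has 3 windows, and only the innermost, at the start farthest along the gene, held any of the words. That window and those of *Slc25a33* and *Slc25a36* are shown, the last because it is the other carrier with a full cAMP element. Each is written in the direction of the gene, with the words found in capitals. They lie on chr2:32424017-32424316, chr4:149774218-149774517 and chr9:97110992-97111291, all on the minus strand.
Slc25a25: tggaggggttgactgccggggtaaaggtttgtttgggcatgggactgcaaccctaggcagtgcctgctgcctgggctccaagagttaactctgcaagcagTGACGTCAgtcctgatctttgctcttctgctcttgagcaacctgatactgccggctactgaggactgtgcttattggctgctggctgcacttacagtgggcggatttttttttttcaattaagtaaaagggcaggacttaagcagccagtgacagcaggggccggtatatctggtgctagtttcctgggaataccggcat
Slc25a33: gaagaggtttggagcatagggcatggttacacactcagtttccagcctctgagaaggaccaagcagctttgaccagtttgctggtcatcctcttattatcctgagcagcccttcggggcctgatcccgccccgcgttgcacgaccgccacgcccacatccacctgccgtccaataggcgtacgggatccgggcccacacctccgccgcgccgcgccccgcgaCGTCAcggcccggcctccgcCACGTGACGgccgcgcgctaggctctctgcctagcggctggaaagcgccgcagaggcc
Slc25a36: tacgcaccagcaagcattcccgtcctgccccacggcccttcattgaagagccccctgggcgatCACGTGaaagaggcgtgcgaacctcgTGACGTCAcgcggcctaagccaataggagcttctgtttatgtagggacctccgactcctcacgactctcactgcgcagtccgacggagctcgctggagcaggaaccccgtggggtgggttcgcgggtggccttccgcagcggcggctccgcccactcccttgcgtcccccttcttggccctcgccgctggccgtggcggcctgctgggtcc

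The full cAMP element began 150 bases before the start in *Slc25a25* and 161 before it in *Slc25a36*. This word was in 1.79% of all 32851 windows and in 4.35% of the 46 windows of carriers. *Slc25a36*, also a pyrimidine nucleotide carrier, was not called for exercise (adjusted p = 0.503). In *Slc25a33*, 2 core words began 28 and 4 bases before the start, the second of them sharing its first letters with the end of an E-box. The core word stood in 20.8% of all windows and in 28.3% of the 46 windows of carriers, those of 12 carriers. For the E-box these shares were 7.15% and 17.4%, the latter from 7 carriers. The windows of *Slc25a5* and *Slc25a30* held none of the 6 words. AP-1 words were in 7.81%, NRF1 words in 4.6% and the estrogen-related receptor word in 1.28% of all windows. Among the 46 windows of carriers they were in 4.35%, 4.35% and 0%, from 2, 2 and 0 carriers. The counts are per gene, so the data do not say from which start *Slc25a25* was read.

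Of the 8 carriers highest per kilobase, 1 was called for exercise, *Slc25a5*, beside 10.4% of all genes. The other 7 were not called. *Slc25a4* was at 3602, 4485, 4566, 4718 and 4905 CPM in rested WT mice and between 3633 and 5291 (median 4507) in rested mD3AKO mice. After exercise it was between 3766 and 5474 (median 4504) in WT and between 3974 and 5189 (median 4640) in mD3AKO mice. The 4 ranges overlapped almost wholly. Its log2 fold change with exercise was 0.04 (SE 0.0761, adjusted p = 0.861).

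*Slc25a3* was at 757, 991, 997, 1040 and 1053 CPM in rested WT mice, between 784 and 1222 in rested mD3AKO (median 998), between 772 and 1133 in exercised WT (median 984) and between 906 and 1147 in exercised mD3AKO mice (median 1011). The log2 fold change was 0.03 (SE 0.0796, adjusted p = 0.896). *Slc25a11* was at 302, 352, 356, 375 and 381 CPM, between 293 and 399 (median 324), between 281 and 405 (median 342) and between 311 and 379 (median 355) in the same order of groups, with a log2 fold change of 0.00066 (SE 0.0609, adjusted p = 0.999). For both carriers the groups overlapped. *Slc25a11* shares 189 bases of exon with *Rnf167* on the other strand.

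*Slc25a12* was at 450, 456, 559, 565 and 570 CPM in rested WT, between 412 and 569 (median 514) in rested mD3AKO, between 461 and 606 (median 502) in exercised WT and between 437 and 608 (median 506) in exercised mD3AKO mice. Its log2 fold change was 0.01 (SE 0.0667, adjusted p = 0.952). *Slc25a20* was at 146, 162, 167, 190 and 193 CPM, between 116 and 199 (median 183), between 133 and 199 (median 178) and between 146 and 176 (median 172) in these groups, with a log2 fold change of -0.01 (SE 0.0861, adjusted p = 0.972). The 4 groups overlapped for both carriers, and *Slc25a20* was spread most widely in rested mD3AKO mice (SD 33.5, n = 7) and least in exercised mD3AKO mice (SD 13.5, n = 6).

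*Slc25a34*, for which no substrate was assigned here, varied most among the 8 abundant carriers. It was at 39.9, 51.8, 53.5, 59.8 and 121 CPM in rested WT and between 36.7 and 156 (median 65.1) in rested mD3AKO mice, and between 40.7 and 111 (median 79.8) in exercised WT and between 42.3 and 102 (median 62.6) in exercised mD3AKO mice. The 2 highest values, 156 and 121, were those of rested females of the 2 genotypes, mice 2 and 1. Females 1 to 6 had a median of 102 CPM, females 20 to 25 of 50.9 and males of 59.8. Its coefficient of variation over the 25 mice was 41.1%, against a median of 14.2% over the 40 carriers, and its log2 fold change with exercise was 0.05 (SE 0.216, adjusted p = 0.944). *Slc25a39* was at 30.4, 37.7, 38.0, 38.7 and 42.1 CPM, between 31.6 and 39.9 (median 38.5), between 37.0 and 45.4 (median 38.0) and between 31.2 and 42.1 (median 35.1), with a log2 fold change of 0.04 (SE 0.0580, adjusted p = 0.808).

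The other 29 tested carriers were not called for exercise, and their log2 fold changes ran from -0.27 (*Slc25a1*) to 0.24 (*Slc25a18*), both named after their values were seen. The family summed to 7135 ± 741 CPM (SD, n = 5) in rested WT, 7131 ± 973 (n = 7) in rested mD3AKO, 7369 ± 824 (n = 7) in exercised WT and 7446 ± 570 (n = 6) in exercised mD3AKO mice, differences smaller than the SD within groups. Of 21 genes of other transport routes through the mitochondrial membranes and 15 genes of carrier import, edgeR called 0 for exercise, beside 10.4% of all genes. Of the 4 tested carriers with other symbols, 1 was higher, *Ucp2*, with a log2 fold change of 0.35 (SE 0.0996, adjusted p = 0.0218). This call was lost without WT mouse 14 at rest (adjusted p = 0.0539), in males alone (0.468) and in females alone (0.0700). The log2 fold changes in these fits were 0.32, 0.23 and 0.45. *Ucp2* encodes an uncoupling protein-like carrier that is not typical of muscle fibers.

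The next question was whether the loss of muscle DNMT3A changed the response of the carriers to exercise. In WT mice alone, *Slc25a25*, *Slc25a33* and *Slc25a5* were called, all higher, with 3.59% of all genes called and 2.16% higher. In mD3AKO mice *Slc25a25* and *Slc25a33* were called, both higher, with 6.02% of all genes called and 3.7% higher. At an unadjusted p under 0.05 it was 5 carriers in WT and 4 in mD3AKO mice, against 12.3% and 17.6% of all genes. For *Slc25a25* the log2 fold change was 2.64 (SE 0.189, adjusted p = 7.36e-10) in WT and 3.00 (SE 0.172, adjusted p = 2.38e-11) in mD3AKO mice. For *Slc25a33* it was 0.85 (SE 0.134, adjusted p = 0.000172) and 0.62 (SE 0.125, adjusted p = 0.00221). *Slc25a5* had 0.36 (SE 0.0970, adjusted p = 0.0316) and 0.25 (SE 0.0914, adjusted p = 0.117), and *Slc25a30* 0.32 (SE 0.11, adjusted p = 0.127) and 0.30 (SE 0.104, adjusted p = 0.0888). The call of *Slc25a5* in WT mice was lost without any 1 of WT mice 1, 9, 14, 16 and 20, with adjusted p-values between 0.0543 and 0.120. It was also lost without the filter on low counts (0.0562), in males alone (0.200) and in females alone (0.218). The log2 fold changes in the fits that lost it were between 0.30 and 0.42. In mD3AKO mice *Slc25a5* passed with sex as a term (0.26, adjusted p = 0.0378), with blocks of mouse numbers (0.27, adjusted p = 0.0413) and without mouse 7 (0.30, adjusted p = 0.0481). *Slc25a30* passed in mD3AKO mice without mouse 3 (0.35, adjusted p = 0.0498). In males alone *Slc25a33* missed the threshold in both genotypes (0.69, adjusted p = 0.0865 in WT and 0.56, adjusted p = 0.0839 in mD3AKO mice).

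The difference between genotypes was itself tested as an interaction. 0 carriers passed, as did 0 of all 16340 genes (0% called), and at an unadjusted p under 0.05 there were 0 carriers and 403 genes (2.47%). DESeq2 called 0 carriers. The response of *Slc25a25* in mD3AKO less that in WT mice was 0.36 (SE 0.237, adjusted p = 1), with 0.83 in males and -0.24 in females alone, and that of *Slc25a33* -0.24 (SE 0.182, adjusted p = 1) on the log2 scale. The rested levels of *Slc25a25* differed by -0.40 between mD3AKO and WT (SE 0.174, adjusted p = 1), and 2 of the 5 rested WT mice, at 21.4 and 32.3, were above all rested mD3AKO mice. Both values rest largely on the WT mouse at 32.3 (mouse 11). Without it the difference in response was 0.097 and that at rest -0.14, and in females alone that at rest was -0.066. After exercise, *Slc25a33* differed by -0.27 (SE 0.125, adjusted p = 0.890), with overlapping groups. Its difference in response was between -0.31 and -0.15 when each mouse was left out, and between -0.41 and -0.14 in other settings.

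Between genotypes over rest and exercise, 0 of 40 carriers were called, with 0.269% of all genes called. DESeq2 also called 0. At an unadjusted p under 0.05 there were 2 carriers, beside 6.23% of all genes, named here after their values were seen. *Slc25a26*, the carrier of the methyl donor S-adenosylmethionine, had a log2 fold change of -0.14 (SE 0.0648, adjusted p = 0.783), and *Slc25a45* of 0.21 (SE 0.0986, adjusted p = 0.783). The median of the 40 was -0.03, with a median SE of 0.0788, beside 0.0070 over all genes. Of the 40 carriers 14 were above 0 and 26 below, while 53.4% of all genes were above 0. At rest (0.0918% of all genes called) and after exercise (0.11%), edgeR and DESeq2 called 0 carriers either, with 2 and 3 carriers at an unadjusted p under 0.05 by edgeR, where 3.65% and 5.51% of all genes had one.

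**Figure D3:**
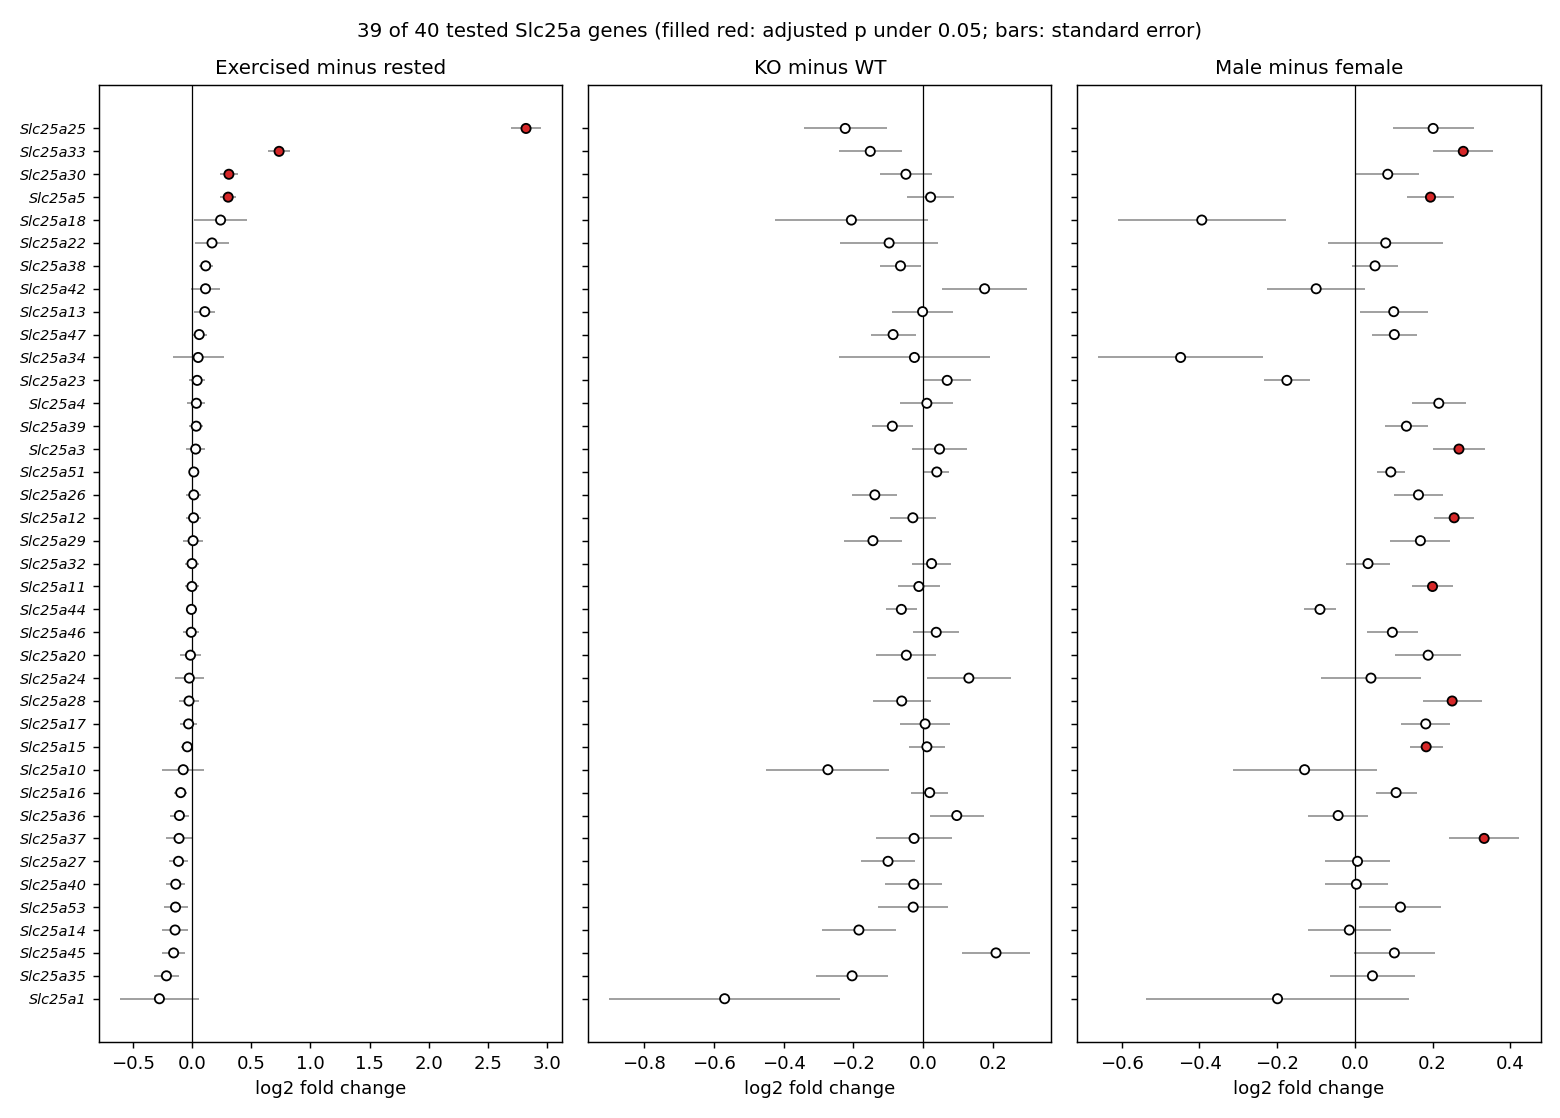
Log2 fold changes of 39 of the 40 tested carriers for exercise, genotype and sex, each on its own axis, with bars for the standard error. Filled points passed an adjusted p of 0.05. There are 4 of them for exercise, all to the right of 0, none for genotype, and 8 for sex, again all to the right.

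The widest genotype difference was that of *Slc25a1*, the citrate carrier, which exports citrate for fatty acid synthesis and is abundant in liver and fat. It was at 3.43, 4.66, 8.94, 9.15 and 13.2 CPM in rested WT and between 2.10 and 19.4 (median 6.36) in rested mD3AKO mice, and between 3.19 and 17.7 (median 6.81) in exercised WT and between 3.04 and 5.96 (median 4.26) in exercised mD3AKO mice. The groups overlapped and the spread within 3 of them was wide. The log2 fold change was -0.57 (SE 0.331, adjusted p = 0.905), with -0.16 at rest (SE 0.475) and -0.97 after exercise (SE 0.467, adjusted p = 0.899). With other settings, 1 sex alone among them, the first ran from -0.77 to -0.27 and the last from -1.12 to -0.56. *Slc25a10*, the dicarboxylate carrier, also known from fat and liver, was at 4.57, 4.89, 6.71, 7.18 and 8.26, between 3.78 and 11.6 (median 5.25), between 4.2 and 11.4 (median 6.48) and between 3.97 and 6.03 (median 5.00) CPM in the same order, with a log2 fold change of -0.27 (SE 0.177, adjusted p = 0.930). For *Slc25a10* it was -0.06 at rest (SE 0.255) and -0.49 after exercise (SE 0.246), and other settings gave -0.37 to -0.15 over rest and exercise. Both carriers were chosen after their values were seen.

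The spread of both followed that of adipocyte markers (*Adipoq*, *Plin1*, *Cidec*, *Cfd*, *Lep*, *Fabp4* and *Retn*), of which 0 of 7 were called for genotype or exercise. All 7 had a log2 fold change below 0 in mD3AKO mice, from -0.81 to -0.19 with a median of -0.68. The median was -0.22 at rest and -1.09 after exercise. Their sum was 322 to 535 CPM in rested WT, 222 to 868 in rested mD3AKO, 266 to 913 in exercised WT and 264 to 459 in exercised mD3AKO mice, and *Adipoq* alone ran from 3.75 to 83.9 CPM. Over the 25 mice, log2 CPM of *Slc25a10* and of the sum had a Pearson r of 0.92 (permutation p = 1e-05, the smallest that 100000 resamples give, adjusted p = 0.00064 over 320 relations) and a Spearman rho of 0.85 (permutation p = 1e-05, adjusted p = 0.0016). For *Slc25a1* the r was 0.87 and the rho 0.81, with the same p-values. These 2 genes are not in the marker list.

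Without the 2 mice farthest from the median of the sum, r was 0.88 for *Slc25a10* and 0.81 for *Slc25a1*. Within the sexes it was 0.87 in males and 0.95 in females for *Slc25a10*, and 0.79 and 0.93 for *Slc25a1*. Within WT and mD3AKO mice it was 0.91 and 0.93 for *Slc25a10*, and 0.89 and 0.83 for *Slc25a1*. Within rested and exercised mice it was 0.95 and 0.94, and 0.85 and 0.96. The females differed by block of mouse numbers. *Slc25a1* had a median of 3.42 CPM in females 1 to 6 and of 11.7 in females 20 to 25, *Slc25a10* of 4.59 and 7.76, and the adipocyte sum of 327 and 660.3. Within these blocks of 6 mice each, r was 0.84 and 0.90 for *Slc25a1*, and 0.73 and 0.96 for *Slc25a10*. The relation was thus positive in every one of these subsets. The part of adipocytes in the genotype values of the 2 carriers was not tested.

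**Figure D4:**
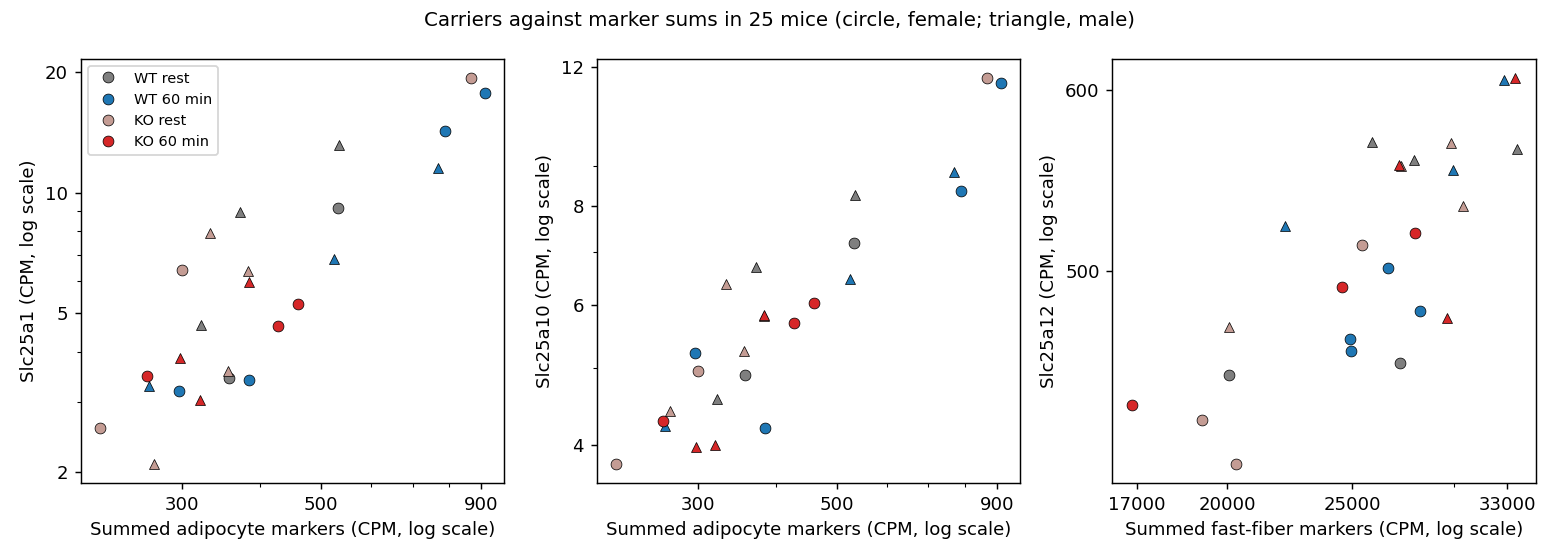
CPM of *Slc25a1* and *Slc25a10* against the summed adipocyte markers, and of *Slc25a12* against the summed fast-fiber markers, 1 point per mouse, all axes on a log scale. The first 2 rise with the adipocyte sum (r 0.87 and 0.92) in mice of all 4 groups, and *Slc25a12* rises with the fast-fiber sum (r 0.77), males lying mostly above females.

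The 320 relations came from the 40 carriers and the sums of 8 marker lists, and 13 of them had an adjusted p under 0.05 by both r and rho. The permutations ran over all 25 mice and ignored sex, genotype and exercise. Their p-values therefore also take in differences between these groups. *Slc25a24*, like *Slc25a25* a carrier of ATP-Mg and phosphate, followed the fibroblast sum (r = 0.80, rho = 0.66, permutation test, adjusted p = 0.00064 and 0.0093) and the immune sum (r = 0.76, rho = 0.72, adjusted p = 0.00064 and 0.005). Within males r with the fibroblast sum was 0.78 and within females 0.88. *Slc25a45* followed the immune sum more loosely (r = 0.57, rho = 0.62, permutation test, adjusted p = 0.031 and 0.032), with r of 0.38 in males, 0.25 in females 1 to 6 and 0.88 in females 20 to 25. *Slc25a10* was also related to the fibroblast sum (r = 0.59, but 0.030 within females 20 to 25) and, inversely, to the sum of muscle markers (r = -0.64).

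*Slc25a12*, *Slc25a4*, *Slc25a11* and *Slc25a28* followed the fast-fiber sum (*Myh4*, *Myh1*, *Tnni2*, *Tnnt3*, *Atp2a1* and *Mylpf*), with r of 0.77, 0.75, 0.69 and 0.62 (permutation test, adjusted p = 0.00064, 0.0016, 0.0051 and 0.02). Without the 2 farthest mice r was 0.72, 0.70, 0.63 and 0.55. Within males it was 0.64, 0.83, 0.75 and 0.59, and within females 0.75, 0.48, 0.39 and 0.34. The blocks of females differed, with 0.67, 0.84, 0.99 and 0.76 in females 1 to 6 and 0.84, 0.65, 0.32 and -0.032 in females 20 to 25 (n = 6 each). Differences between these values were not tested. The remaining 2 relations were those of *Slc25a25* and *Slc25a33* with endothelium. Their r within rested and within exercised mice is given above, without a test.

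The mice were of both sexes, and the carriers were therefore also compared between males and females, with 8 groups of sex, genotype and exercise. 8 of 41 carriers were higher in males and 0 lower, a share of 19.5%, while 8.15% of all 17389 genes were called, 5.36% higher and 2.79% lower. At an unadjusted p under 0.05 it was 19 carriers, against 22.4% of all genes. Of the 41, 32 had a log2 fold change above 0, beside 48.7% of all genes, with a median of 0.10 beside -0.0054 over all genes. DESeq2 called 10, of which 9 were higher and 1 (*Slc25a23*) lower in males. The count depends on single mice, and was 3 without mD3AKO mouse 3 after exercise or WT mouse 20 at rest, 4 without mouse 21 and 5 without mouse 8, 12 or 22. Without mouse 15, the library with 3 dominant genes, 7 carriers were called, of which 6 were among these 8. *Slc25a28* and *Slc25a5* then had an adjusted p of 0.0741 and 0.0758, and *Slc25a23*, another carrier of ATP-Mg and phosphate, was called lower in males. The 4 calls for exercise stayed without this mouse.

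The 8 carriers belonged to 5 substrate classes. The 5 with the largest differences are given in full. *Slc25a37* (mitoferrin-1), which brings iron into the matrix, was between 6.58 and 9.47 CPM (median 8.05) in the 12 females and between 8.30 and 15.2 (median 9.39) in the 13 males, with a log2 fold change of 0.33 (SE 0.0908, adjusted p = 0.0251). *Slc25a28* (mitoferrin-2), its relative with the same substrate, was between 14.7 and 18.5 (median 16.9) in females and between 12.4 and 22.4 (median 20.0) in males, a log2 fold change of 0.25 (SE 0.0756, adjusted p = 0.0435). Both iron carriers passed the test with overlapping ranges, but the call of *Slc25a28* was lost in 18 of the 25 fits that left out 1 mouse, with an adjusted p of up to 0.117. That of *Slc25a37* was lost in 3, without mouse 1, 3 or 16, with up to 0.0755.

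Markers of red blood cells, whose precursors use mitoferrin-1 for heme, stood beside this difference. All 5 (*Hba-a1*, *Hba-a2*, *Hbb-bs*, *Hbb-bt* and *Alas2*) had a log2 fold change above 0 in males, from 0.46 to 0.59, and 0 of 5 were called. Their sum was highest in the males 7 and 11, at 464 and 415 CPM, the mice with the highest *Slc25a37*, at 13.3 and 15.2 CPM. Females 20 to 25 had sums of up to 283 CPM, with *Slc25a37* between 7.87 and 8.90 CPM. Over the 25 mice, the relation of *Slc25a37* to this sum was not among those that passed by both r and rho. The part of red blood cells in the difference of *Slc25a37* was not tested.

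*Slc25a3* was between 757 and 1017 CPM (median 923) in females and between 880 and 1222 (median 1077) in males, with a log2 fold change of 0.27 (SE 0.0664, adjusted p = 0.0144), a call lost without WT mouse 20 (adjusted p = 0.0727). *Slc25a12* was between 412 and 520 (median 464) in females and between 472 and 608 (median 556) in males, with a log2 fold change of 0.26 (SE 0.0517, adjusted p = 0.00346). *Slc25a33* was between 13.8 and 35.3 (median 24.9) in females and between 12.5 and 37.1 (median 23.2) in males. Much of this spread is that between rest and exercise, so the medians do not show the difference. The fit over the groups gave 0.28 (SE 0.0777, adjusted p = 0.0280), a call lost in 11 of the 25 fits without 1 mouse. The other 3, *Slc25a11* of the malate-aspartate shuttle, *Slc25a5* and the ornithine carrier *Slc25a15*, had log2 fold changes of 0.20, 0.19 and 0.18, and the call of *Slc25a5* was lost in 20 of those 25 fits, with RLE scaling (adjusted p = 0.0519) and without the filter (0.0703). That of *Slc25a11* was lost without mouse 3, 20 or 21 (adjusted p = 0.0533, 0.0966 and 0.0504). The calls of *Slc25a12* and *Slc25a15* held in all 25. Over these fits the log2 fold changes were 0.27 to 0.38 for *Slc25a37*, 0.21 to 0.28 for *Slc25a28* and 0.22 to 0.33 for *Slc25a3*. They were 0.24 to 0.31 for *Slc25a33*, 0.16 to 0.23 for *Slc25a5* and 0.17 to 0.23 for *Slc25a11*. No carrier separated all males from all females, as 0.19% of all genes did with males higher.

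**Figure D5:**
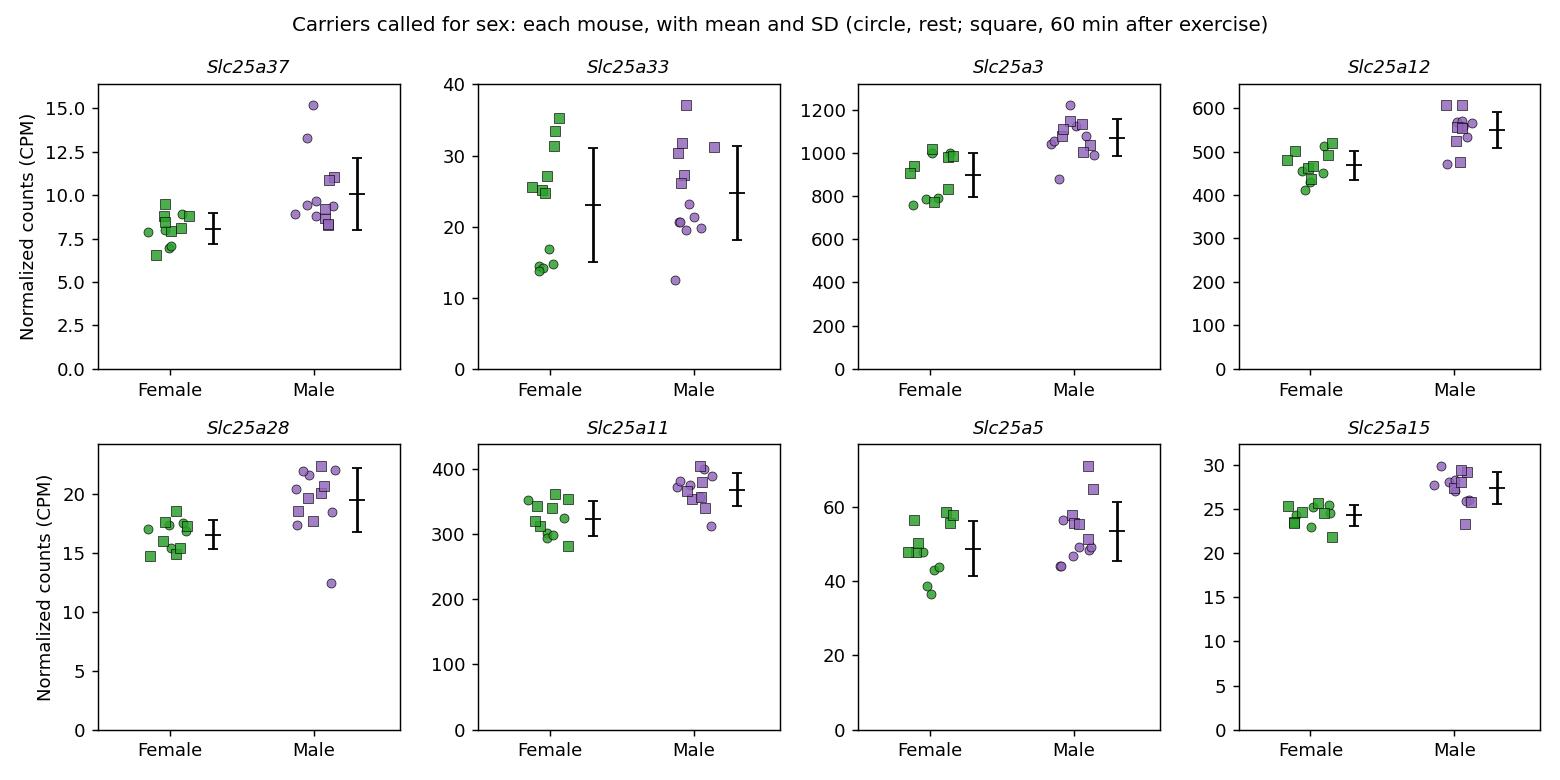
CPM of the 8 carriers called for sex in each mouse, by sex, with mean and SD. Circles are rested and squares exercised mice. The male mean is above the female mean in each panel, with overlap of the mice in all of them, for example 412 to 520 in females and 472 to 608 in males for *Slc25a12*.

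Fiber type markers differed between the sexes as well. Of the 6 fast-fiber markers 3 were higher in males and 0 lower, and of the 9 muscle markers 3 were higher and 5, all of slow fibers, lower, with log2 fold changes from -0.49 to 0.50. Of the 21 genes of other transport routes 5 and of the 16 import genes 3 were higher in males, and 0 lower. All 7 adipocyte markers (median -0.63) and all 4 Schwann cell markers (median -0.75) had log2 fold changes below 0 in males, with 0 called. The adipocyte sum had a median of 327 CPM in females 1 to 6, 660.3 in females 20 to 25 and 355 in males. The male median was thus below that of the second block of females only. The Schwann cell sum had a median of 87.4 CPM in females 1 to 6, 310 in females 20 to 25 and 81.8 in males. The mice numbered 7 to 19 were all male and those numbered 1 to 6 and 20 to 25 all female, and what the numbers stand for is not given in the sources used here, so sex and any order they mark cannot be told apart. *Slc25a12* had a median of 459 CPM in females 1 to 6 and of 474 in females 20 to 25, against 556 in males. The blocks of females differed for other carriers, among them *Slc25a1* as given above. *Slc25a3* was between 941 and 1017 CPM (median 990.4) in females 1 to 6 and between 757 and 906 (median 788) in females 20 to 25, which did not overlap, against a median of 1077 in males. *Slc25a11* had medians of 341 and 300.3 in these females and of 371 in males. The part of fiber type, adipocytes or Schwann cells in these differences was not tested. The response to exercise was not shown to differ between the sexes, since 0 of 41 carriers passed that interaction (0.046% of all genes called), and 1, *Slc25a29*, had an unadjusted p under 0.05, against 3.28% of all genes. DESeq2 called 0 carriers there.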

How the data were processed

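RNA was measured in 25 *soleus* libraries (stranded, ribosomal RNA depleted, 75-base paired reads). Per the study's methods, the authors counted reads on GENCODE release 15 genes (mm10), and the submitters' processing notes name FastQC 0.11.5, STAR 2.5.3a and featureCounts 1.5.3. The deposited values are raw counts per gene, not normalized. How reads on several genes or on the other strand were counted is not given in the sources used here. Symbols came from GENCODE release 21 (52403 of 52636 genes matched).

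From these counts, edgeR 4.0.16 (R 4.3.3, limma 3.58.1) fitted 4 group means with TMM after filterByExpr (minimum count 10, total 15), and each contrast was tested by its quasi-likelihood F test, with p-values adjusted by Benjamini-Hochberg over all genes tested. Main effects average both levels of the other factor with equal weight. Sex was tested with 8 groups. Standard errors are the log2 fold change over the root of F. Correlations used log2 CPM and 100000 permutations. Members with an adjusted p under 0.05, or among the 8 highest per kilobase, are named (1 carrier is not reported here by name or drawn), with full values for at most 5 in sex and genotype. The members, lists and tests were chosen with earlier results of these data known. Alternatives were RLE scaling, no filter, DESeq2 1.42.0, a sex term, 1 sex alone, blocks of mouse numbers and leaving out each mouse. The code was tested on simulated data. At the median depth, 1 CPM is 32.2 counts. None of the 67 pairs of libraries within groups was identical.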

Additional observations from a re-analysis of the deposited data

Results flagged for a closer look

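In 8 of the 72 groups of mice checked, 18 carriers in 4 groups each, the highest or lowest mouse lay far from the rest of its group by Dixon's criterion. For a single group fixed beforehand, chance gives this in about 5% of cases. The 18 carriers are among those named here, some after their values were seen, and all were measured in the same mice. The 8 groups can therefore not be set against that share. In rested mD3AKO mice, mouse 21 was highest for both *Slc25a1*, with 19.4 CPM against 7.94 in the next mouse, and *Slc25a10*, with 11.6 against 6.38. *Slc25a34* was highest at 156 CPM in mD3AKO mouse 2 and at 121 in WT mouse 1, both rested, where the next mice had 70.6 and 59.8. *Slc25a37* was highest in rested mD3AKO mouse 7, at 13.3 CPM. *Slc25a33* was highest in exercised mD3AKO mouse 10, at 31.8 CPM against 27.2.

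On the low side, *Slc25a25* was at 75.5 CPM in exercised WT mouse 9 against 115 in the next mouse, still above every rested mouse. *Slc25a3* was at 757 CPM in rested WT mouse 20 against 991.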

How the results depend on the processing

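No paired analysis was possible because the mouse numbers 1 to 25 are each used once, so the groups share none. The count of carriers called for exercise was 4 in all settings except in males alone, with 2 (*Slc25a25* and *Slc25a33*), and in females alone, with 3. The counts for genotype and interaction were 0 in every setting. Within genotypes, males alone gave 1 carrier (*Slc25a25*) in place of 3. Fewer samples entered the fits of 1 sex. The count for sex was between 3 and 9 when each mouse was left out, 7 with RLE scaling or without the filter and 10 with DESeq2. The reversals were all of values that passed no test. The log2 fold change of *Slc25a11* with exercise was -0.0020 with RLE scaling, -0.0017 without the filter, -0.0019 with DESeq2 and -0.018 in males, that of *Slc25a20* was 0.011 with a sex term and 0.0049 in males, that of *Slc25a34* was -0.082 in females, and that of *Slc25a39* was -0.034 in males. The interaction of *Slc25a25* was -0.24 in females. Leaving out each mouse gave -0.026 to 0.023 for *Slc25a11*, -0.048 to 0.015 for *Slc25a20*, -0.028 to 0.23 for *Slc25a34*, -0.0062 to 0.062 for *Slc25a3* and -0.015 to 0.038 for *Slc25a12*. It gave 0.0048 to 0.061 for *Slc25a4* and 0.0044 to 0.061 for *Slc25a39*, without a reversal. The causes were not tested. The alternatives for results within genotypes, for genotype at rest and after exercise, and for single carriers in sex and interaction were chosen after seeing the data. Counts of 5 to 50 over all libraries leave 6 carriers untested.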
